A study of Homo sapiens with 22 samples.

Results

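The genes described here are 10 members of the bone morphogenetic protein (BMP) pathway: the target genes ID1, ID2, ID3 and ID4, the ligands BMP2, BMP4 and BMP7, the secreted antagonists NOG (noggin) and GREM1 (gremlin 1), and SMAD6, an intracellular brake of the pathway. They were taken by symbol, 10 of the 35237 genes in the count table, and all 10 were found. RNA sequencing had been done on 22 libraries of 2 established human neuroblastoma cell lines, SK-N-AS and GIMEN, both labelled MES, in neuroblastoma the usual short form for the mesenchymal cell state. To follow differentiation over time, cells received PP121, an inhibitor of tyrosine kinases and phosphoinositide 3-kinases, alone or with bufalin, a cardiac glycoside that blocks the sodium pump.

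Untreated SK-N-AS cells (Naive in the labels, n = 4) grew in DMEM with 10% fetal bovine serum. In the group S1D4 (n = 4) they were kept for 4 days in DMEM with 1% serum and 5 µM PP121. In the groups S2D4 and S2D30 (n = 4 each) cells that had gone through S1D4 were moved to Neurobasal medium with B27 supplement, for which no serum is named, with 5 µM PP121 and 100 nM bufalin, for 4 or 30 days. Untreated GIMEN cells (n = 3) grew in RPMI with 10% serum, and GIMEN D30 cells (n = 3) spent 30 days in RPMI with 1% serum, 2.5 µM PP121 and 10 nM bufalin. No group received the change of medium or serum without drug, so the effects of drug, serum and medium cannot be told apart. Between the lines, dose, medium and schedule differ as well. The labels number the replicates and do not say whether these were separate cultures, so the p-values measure the spread between these libraries, which may be technical.

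BMP ligands are secreted dimers that bind paired type I and type II serine/threonine kinase receptors. The receptors phosphorylate SMAD1, SMAD5 and SMAD9, which join SMAD4 and switch on target genes, among which ID1 to ID4 and SMAD6 are well known. ID proteins lack a DNA-binding region and hold basic helix-loop-helix E proteins away from DNA, which in neural and neural crest cells is known to delay differentiation. Noggin and gremlin 1 bind the ligands outside the cell, and SMAD6 blocks receptor signalling inside it.

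Promoters of the target genes are shown because ID1, ID3 and SMAD6 all fell in S1D4, S2D4 and GIMEN D30, while ID4 rose in SK-N-AS. The 250 bases before the annotated start are given from RefSeq (GRCh38.p14), 5′ to 3′ on the gene's strand. Capitals mark GGAGCC or its reverse complement GGCTCC, a SMAD1/5-type motif, and GTCT or its reverse complement AGAC, a SMAD4-type motif. The windows lie at chr20:31605039-31605288 (plus strand, ID1), chr1:23559502-23559751 (minus strand, ID3), chr15:66701986-66702235 (plus strand, SMAD6) and chr6:19837120-19837369 (plus strand, ID4).
ID1: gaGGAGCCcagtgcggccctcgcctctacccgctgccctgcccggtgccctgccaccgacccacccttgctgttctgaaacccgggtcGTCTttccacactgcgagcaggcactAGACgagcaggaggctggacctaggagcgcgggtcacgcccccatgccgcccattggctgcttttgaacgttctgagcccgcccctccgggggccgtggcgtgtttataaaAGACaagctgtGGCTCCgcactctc
ID3: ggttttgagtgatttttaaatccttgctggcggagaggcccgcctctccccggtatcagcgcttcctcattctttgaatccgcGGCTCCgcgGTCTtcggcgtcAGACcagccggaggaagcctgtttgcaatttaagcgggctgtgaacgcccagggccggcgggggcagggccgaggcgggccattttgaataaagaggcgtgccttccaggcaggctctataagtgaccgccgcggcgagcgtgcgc
SMAD6: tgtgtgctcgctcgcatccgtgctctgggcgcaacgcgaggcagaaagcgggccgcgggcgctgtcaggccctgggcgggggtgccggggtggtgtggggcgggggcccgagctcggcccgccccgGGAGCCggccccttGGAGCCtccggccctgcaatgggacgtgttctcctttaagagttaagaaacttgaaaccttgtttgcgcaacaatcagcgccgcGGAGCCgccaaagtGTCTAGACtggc
ID4: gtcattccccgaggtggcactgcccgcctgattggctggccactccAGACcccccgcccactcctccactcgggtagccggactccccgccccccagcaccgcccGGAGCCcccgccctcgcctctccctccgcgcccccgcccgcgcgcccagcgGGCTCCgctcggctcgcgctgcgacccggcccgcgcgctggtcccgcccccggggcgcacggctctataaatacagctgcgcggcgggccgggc
The motif GGAGCC, on either strand and with no overlap to GTCT, occurred 3 times before SMAD6, 2 times before ID1 and before ID4, and 1 time before ID3. Of 35116 promoter windows of the same length, 30.6% held it at least once and 1.48% held it 3 times or more. It was not in the window of ID2 (chr2:8681806-8682055, plus strand). The motif GTCT, on either strand, occurred 3 times before ID1, 2 times before ID2, ID3 and SMAD6 and 1 time before ID4, and 77.5% of all windows held it. ID4 and ID1 held the same number of copies of GGAGCC. The related motif GGCGCC, in 16.4% of all windows, was in none of the 5. These matches are descriptions of the letters alone, and binding was not measured. The windows shown held 62.0% (ID3) to 78.8% (ID4) G or C, and the shares over all windows were not matched for this. Sequence further upstream was not searched, and a link between motif counts and direction of change was not tested. RefSeq promoters were matched for 7 of the 10 genes, and BMP2, BMP7 and NOG were not among them.

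The libraries held 16456484 to 37506800 counts. Replicate 4 of S2D4 stood apart: its log2 expression correlated with the other 3 libraries of its group at 0.9673 to 0.969, and the highest value among those was 0.9901. Its summed mesenchymal markers were 2528 CPM (counts per 1000000 of the scaled library) against 4476 to 4772 in the others, its adrenergic markers 845 against 569 to 614, and its proliferation markers 356 against 247 to 257. For most members S2D4 values are therefore also given without it. Values of the other pathway genes in S2D4 include it, apart from a step of ATOH8 that is given both ways. To check the MES label, 8 mesenchymal markers summed to 37704 to 39288 CPM in untreated GIMEN and 8 adrenergic markers to 410 to 435. Of the latter HAND2 was at 363 ± 10.2 CPM and GATA3 at 60.2 ± 3.19 (SD, n = 3), while PHOX2A was at 0. In untreated SK-N-AS the mesenchymal sum was 931 to 1469 CPM and lay below the adrenergic sum, 1612 to 1793. VIM alone stood at 937 ± 243 CPM (SD, n = 4). The sums hold different genes and are not per kilobase, so they do not settle whether the label holds for SK-N-AS. Gene by gene, 7 of the 8 mesenchymal markers were higher in untreated GIMEN than in untreated SK-N-AS and 1 was lower. All 8 adrenergic markers were lower. Of all genes 35.3% were higher and 38.6% lower. All 8 proliferation markers were lower in S1D4, S2D4, S2D30 and GIMEN D30 than in the untreated cells of the line. In SK-N-AS their sum was 1133 to 1296 CPM before treatment, 292 to 496 after S1D4 and 76.5 to 82.4 after S2D30, and in GIMEN it was 1709 to 1744 before and 64.4 to 74.1 after D30. Its part in the changes of the BMP genes was not tested. Of other cell types, 5 leukocyte markers summed to 169 to 215 CPM in untreated SK-N-AS, with CD3E at 0, and to 76.0 to 157 in the treated groups. The sum hides opposite courses: from untreated SK-N-AS to S2D30 the mean of PTPRC went from 177 ± 20.9 to 0.85 ± 0.36 CPM (SD, n = 4) and that of CD68 from 13.2 ± 4.61 to 123 ± 27.4. In GIMEN the list summed to 88.3 to 99.2 CPM untreated and 174 to 406 in D30, with CD68 at 93.5 ± 5.75 and 291 ± 116 (n = 3). The part of these markers in the results was not tested. Endothelial and Schwann cell markers (4 each) summed to at most 30.5 and 7.27 CPM in any library. RNA from a mixed culture cannot tell a smaller number of expressing cells from less RNA per cell.

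Members were called higher and others lower in every treatment. In S1D4, 3 of the 10 were higher and 3 lower than in untreated cells (edgeR, adjusted p under 0.05), where 40.1% of all 15810 genes tested were called, 17.6% higher and 22.4% lower. In S2D4, 5 were higher and 4 lower, against 63.1% of all genes called (30.9% higher, 32.2% lower). Without replicate 4 of S2D4 these were 4 and 5. In S2D30, 4 were higher and 3 lower, against 70.3% (33.8% higher, 36.5% lower). In GIMEN D30, 7 of the 10 could be tested, of which 2 were higher and 4 lower, against 71.4% of 13517 genes (35.5% higher, 36% lower). From S1D4 to S2D4, 5 were higher and 4 lower, against 55.1% (28.3% higher, 26.8% lower), and from S2D4 to S2D30, 5 were higher and 2 lower, against 51.3% (24.4% higher, 26.9% lower). Calls were common among all genes, so the members are described by their levels and sizes of change rather than by these counts. Groups did not overlap for 7 members in S1D4 (38.3% of all genes), 7 in S2D4 (51.2%), 7 in S2D30 (66.4%) and all 7 tested in GIMEN D30 (75.4%), for 6 from S1D4 to S2D4 (49.5%) and for 6 from S2D4 to S2D30 (50.3%). Some counts moved with single untreated libraries: without untreated replicate 1 or 4, 1 member was higher in S1D4, and without untreated replicate 3 or 4 or S2D4 replicate 3, 3 were higher in S2D4. Without untreated replicate 3 or 4, 5 and 6 members were lower in S2D30. The median log2 fold change of the members was -0.16 in S1D4, 0.05 in S2D4, -0.45 in S2D30 and -1.05 in GIMEN D30, where the median of all genes was -0.01, -0.02, -0.03 and 0.02. The 3 SK-N-AS comparisons with untreated cells share the same 4 untreated libraries and are not independent of each other.

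**Figure D1:**
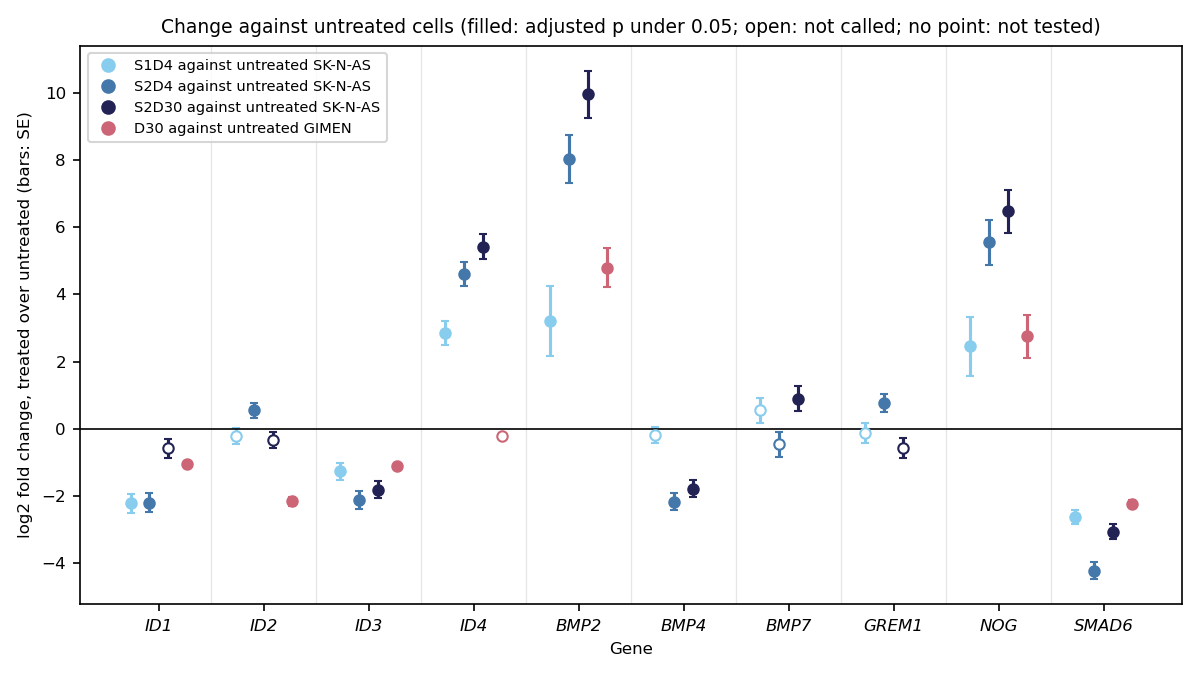
Log2 fold change of the 10 genes against untreated cells of the same line (y axis, with standard errors) in S1D4, S2D4, S2D30 and GIMEN D30, with filled points for an adjusted p under 0.05, open points for genes tested and not called, and no point for genes not tested. ID3 and SMAD6 lie below 0 in all 4 comparisons, BMP2 and NOG above 0, and ID4 lies at 5.42 in S2D30 and at -0.21 in GIMEN D30.

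In untreated cells ID1, ID3 and ID2 were the most abundant members, and ID4 was low in SK-N-AS. Levels between genes are compared per kilobase of annotated exon, merged over the transcripts of GENCODE v29. Untreated SK-N-AS had a level of 63.2 ± 29.7 CPM per kb for ID1 (SD, n = 4), 46.4 ± 14.4 for ID3 and 20.1 ± 8.42 for ID2. SMAD6 stood at 2.77 ± 0.77 CPM per kb, BMP4 at 1.28 ± 0.256, BMP7 at 0.777 ± 0.154, ID4 at 0.45 ± 0.16 and GREM1 at 0.114 ± 0.0447. BMP2 (0.0182 ± 0.0364) and NOG (0.00904 ± 0.0112) were near 0. Untreated GIMEN had 410 ± 8.75 CPM per kb for ID1 (n = 3), 67.7 ± 2.13 for ID3, 18.8 ± 1.71 for ID2, 9.02 ± 0.0743 for ID4 and 3.05 ± 0.148 for SMAD6. NOG followed at 0.303 ± 0.188, and GREM1, BMP2, BMP7 and BMP4 were at or below 0.0256. In untreated SK-N-AS, replicates 1 and 2 lay above replicates 3 and 4 for ID1, ID2, ID3, SMAD6, BMP4, BMP7 and GREM1, and the labels give no reason for this.

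ID1, the classical early target of BMP signalling, fell in S1D4 and S2D4 and was higher again after 30 days of the combination. All levels by library are CPM after 1 scaling of all 22 libraries. Untreated SK-N-AS had 112, 105, 59.3 and 35.6 CPM in replicates 1 to 4, and S1D4 had 21.2, 19.3, 14.4 and 13.7. S2D4 had 15.5, 16.4, 16.9 and 21.0 CPM, and S2D30 had 64.5, 56.3, 53.4 and 40.1. Every S1D4 and S2D4 library lay below every untreated one, while S2D30 overlapped the untreated libraries, of which replicates 3 and 4 were the lower ones. The log2 fold change against untreated cells was -2.21 (SE 0.288) in S1D4, with an adjusted p of 1.79e-05 from edgeR, and -2.19 (SE 0.288, adjusted p 5.23e-06) in S2D4. Without replicate 4 of S2D4 the latter was -2.30. In S2D30 the value was -0.58 (SE 0.274) and not called, with an adjusted p of 0.0675. That call depended on the untreated libraries: without replicate 3 it was -0.70 (adjusted p 0.0462), without replicate 4 -0.82 (0.00242), and with a term for replicates 3 and 4 of untreated and S1D4 cells -0.91 (0.000578). From S2D4 to S2D30, ID1 rose by 1.61 (SE 0.285, adjusted p 0.000172), and these groups did not overlap. From S1D4 to S2D4 its value was 0.02 (adjusted p 0.962).

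In GIMEN, ID1 was the highest of the members and fell as well. Untreated GIMEN had 499, 518 and 500.4 CPM and D30 had 249, 277 and 219, with no overlap. The log2 fold change was -1.05 (SE 0.0803, adjusted p 3.6e-07). Even after this fall, each D30 library lay above every SK-N-AS library. The 30-day changes of the 2 lines differed by -0.45 (GIMEN minus SK-N-AS, SE 0.391), which was not called (adjusted p 0.364).

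ID3 fell in every comparison with untreated cells. Untreated SK-N-AS had 115, 93.6, 64.6 and 60.1 CPM, S1D4 had 37.2, 38.5, 32.1 and 34.2, and S2D30 had 27.2, 24.2, 24.9 and 21.5. S2D4 had 14.1, 14.8 and 15.3 CPM in replicates 1 to 3 and 35.0 in replicate 4. All treated libraries lay below all untreated ones, and replicate 4 of S2D4 sat among the S1D4 libraries. The log2 fold changes were -1.26 (SE 0.256, adjusted p 0.000956) in S1D4, -2.11 (SE 0.264, adjusted p 3.15e-06) in S2D4 and -1.81 (SE 0.261, adjusted p 1.02e-05) in S2D30. Without replicate 4 the S2D4 value was -2.54. From S2D4 to S2D30 the value of ID3 was 0.30 (adjusted p 0.36), although without replicate 4 of S2D4 it was 0.73 and called (adjusted p 0.0035). From S1D4 to S2D4 it fell by 0.84 (adjusted p 0.0111), and by 1.28 without that library (adjusted p 2.07e-05). GIMEN had 119.9, 119 and 126 CPM untreated and 66.1, 55.8 and 52.0 in D30, a log2 fold change of -1.10 (SE 0.0816, adjusted p 2.98e-07).

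Against untreated cells ID2 fell in GIMEN, and in SK-N-AS it was not called lower at any stage. Of its annotated exon bases 1.72% overlap the antisense gene ID2-AS1, and the counts are not stated to use strand. In SK-N-AS the untreated libraries had 65.9, 52.3, 34.5 and 24.1 CPM, S1D4 had 39.6, 33.6, 41.5 and 40.5, and S2D30 had 40.7, 35.9, 35.1 and 33.5. S2D4 had 56.8, 59.7, 59.5 and 90.2 CPM, the last in replicate 4. The untreated libraries spanned nearly the whole range of the S1D4 and S2D30 ones, and neither group was called (log2 fold change -0.22, adjusted p 0.484, and -0.33, adjusted p 0.219). Without untreated replicate 4 the S2D30 value was -0.53 (adjusted p 0.0208). S2D4 was called higher at 0.55 (SE 0.232), with an adjusted p of 0.0482 that lies just under the threshold, and its libraries overlapped the untreated ones. That call was lost without S2D4 replicate 4 (0.37, adjusted p 0.166), 2 (0.60, 0.0517) or 3 (0.60, 0.0532), without untreated replicate 3 (0.45, 0.135) or 4 (0.35, 0.117), with upper-quartile scaling (0.47, 0.0785), in a model of the compared groups alone (0.56, 0.124) and with the term for replicates 3 and 4 (0.39, 0.15). Without untreated replicate 1 it was 0.84 (adjusted p 0.00297). The step from S1D4 to S2D4 was 0.77 (SE 0.233, adjusted p 0.0103) with no overlap, 0.59 (0.0353) without replicate 4 and 0.53 (0.0881) with the term. From S2D4 to S2D30, ID2 fell by 0.88 (SE 0.234, adjusted p 0.00489).

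In GIMEN, ID2 had 44.7, 37.3 and 42.4 CPM untreated and 11.7, 8.95 and 7.58 in D30. The groups lay far apart, at -2.16 on the log2 scale (SE 0.135, adjusted p 7.12e-08), the largest fall of the 4 ID genes in that line. The change of ID2 over 30 days differed between the lines by -1.81 (GIMEN minus SK-N-AS, SE 0.366, adjusted p 0.000569), while the untreated levels of the lines did not differ detectably (-0.09, adjusted p 0.762).

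ID4, an ID gene known from neural progenitors, rose at every stage in SK-N-AS. Untreated SK-N-AS had 0.841, 1.62, 0.907 and 0.855 CPM and S1D4 had 5.54, 6.40, 8.65 and 9.67. S2D4 had 29.2, 35.8 and 28.9 CPM in replicates 1 to 3 but 9.66 in replicate 4, and S2D30 had 53.6, 41.0, 44.4 and 42.6. Each group lay wholly above the one before it, apart from replicate 4 of S2D4, which sat at the upper edge of S1D4. Against untreated cells the log2 fold change was 2.84 (SE 0.362, adjusted p 1.43e-05) in S1D4, 4.60 (SE 0.367, adjusted p 1.57e-08) in S2D4 and 5.42 (SE 0.374, adjusted p 1.39e-09) in S2D30. Without replicate 4 the S2D4 value was 4.89. The step from S1D4 to S2D4 was 1.76 (adjusted p 0.000135), and 2.04 without that library (adjusted p 9.19e-08). The step from S2D4 to S2D30 was 0.81 (adjusted p 0.0276), and 0.53 without it (0.0182), and was not called without S2D30 replicate 1 (0.72, 0.0757) or with these groups alone (0.82, 0.0615). GIMEN had 21.1, 21.3 and 21.0 CPM untreated and 17.0, 18.02 and 20.9 in D30. These groups were separate by a narrow margin, and the log2 fold change of -0.21 (SE 0.0979) was not called (adjusted p 0.0769). It was called without D30 replicate 3 (-0.30, adjusted p 0.0105). The 30-day change of ID4 differed between the lines by -5.62 (SE 0.229, adjusted p 1.12e-11), and its untreated level was higher in GIMEN by 4.38 (SE 0.175, adjusted p 5.92e-13).

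**Figure D2:**
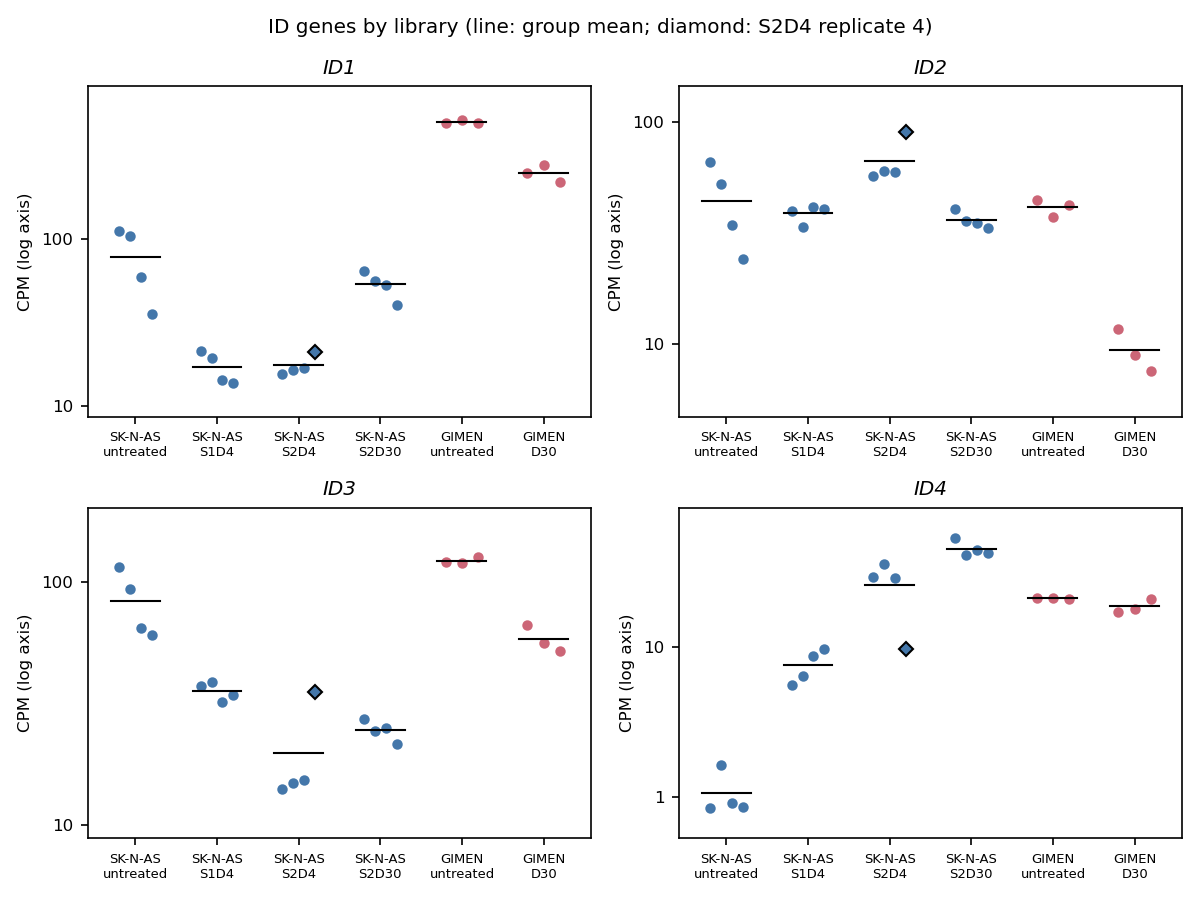
CPM of ID1 to ID4 in each of the 22 libraries (log axis), with a line at each group mean and a diamond for replicate 4 of S2D4. ID1 and ID3 are low in S1D4 and S2D4, the mean of ID4 goes from 1.05 CPM in untreated SK-N-AS to 45.4 in S2D30, and that of ID2 in GIMEN from 41.5 to 9.42.

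The make-up of the ID transcripts differed between the SK-N-AS groups. Of the summed CPM per kb of ID1 to ID4, ID1 held 47.2 ± 5.68% (SD, n = 4) before treatment of SK-N-AS, 25.4 ± 4.22% after S1D4, 21.4 ± 0.678% after S2D4 and 46.5 ± 3.28% after S2D30. ID3 held 37.0 ± 5.77% untreated, 36.2 ± 1.93% in S1D4, 15.98 ± 5.27% in S2D4 and 14.7 ± 0.665% in S2D30. ID2 held 15.3 ± 0.666%, 32.4 ± 3.87%, 45.1 ± 3.48% and 17.8 ± 1.14% in the same order. ID4 held 0.376 ± 0.13%, 5.99 ± 1.77%, 17.6 ± 8.49% and 20.9 ± 1.86%, where replicate 4 of S2D4 had 5.05%. In S2D30 the share of ID4 was thus above that of ID3, and the share of ID1 was within 1 SD of its untreated share. In GIMEN, ID1 held 81.1 ± 0.796% untreated (n = 3) and 81.8 ± 1.93% in D30. The sum itself was 130 ± 52.0 CPM per kb before treatment of SK-N-AS, and S1D4 had 54.5 ± 2.80, S2D4 had 66.4 ± 10.3 and S2D30 had 92.9 ± 12.7. In GIMEN it was 506 ± 6.14 untreated against 246 ± 24.5 in D30. These shares are descriptions and were not tested.

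**Figure D3:**
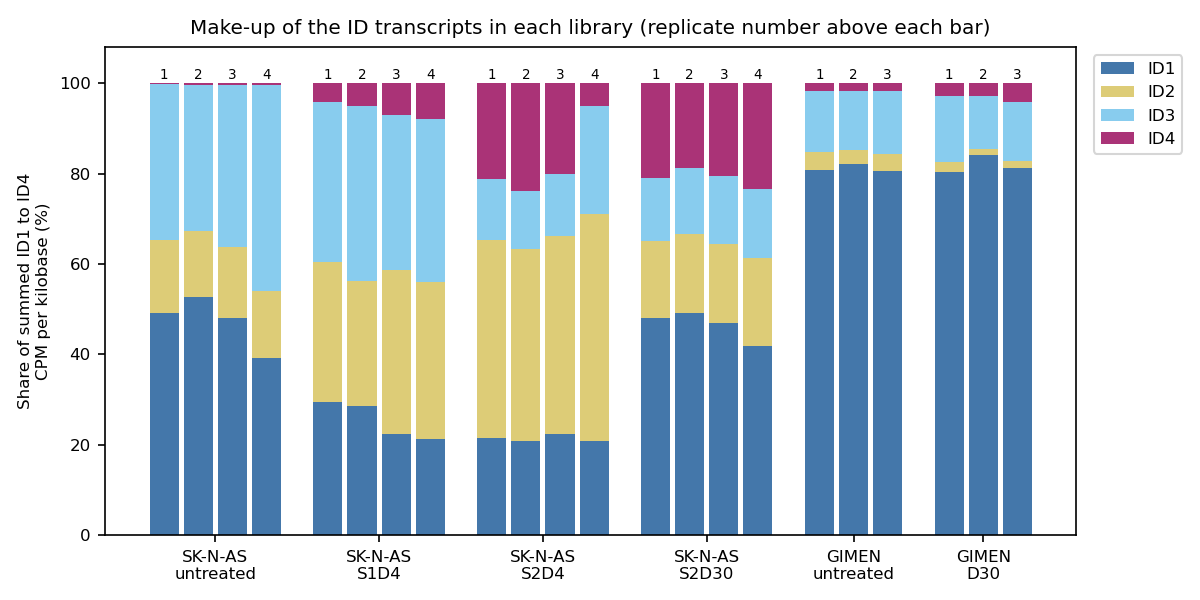
Share of ID1, ID2, ID3 and ID4 in their summed CPM per kilobase (y axis, percent) for each library, with the replicate number above each bar. ID4 takes 0.376% on average in untreated SK-N-AS and 20.9% in S2D30, and ID1 takes 81.1% and 81.8% in the GIMEN groups.

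Among the ligands, BMP2, which binds type I receptors with high affinity, went from near 0 to the highest of the 3 in SK-N-AS. Untreated SK-N-AS had 0 counts in replicates 1, 3 and 4 and 6 counts (0.262 CPM) in replicate 2. S1D4 had 0.563, 0.612, 0.422 and 0.532 CPM, S2D4 had 19.9, 18.9, 18.8 and 3.40, and S2D30 had 61.3, 63.2, 58.1 and 48.0. No library of a later group overlapped an earlier group, and replicate 4 of S2D4 was the lowest of its group by a wide gap. Since the untreated cells had only 6 counts in all, the size of the rise is given as a ratio of pooled counts. It was 10.4 in S1D4 (95% interval 4.43 to 29.5, 49 counts against 6), 271 in S2D4 (124 to 740.2) and 1120 in S2D30 (514 to 3053). These intervals cover counting error only and leave out the spread between libraries. The counts are of reads, for which no molecular identifiers are known. The edgeR log2 fold changes were 3.21 (SE 1.04, adjusted p 0.0216), 8.02 (SE 0.715, adjusted p 6.07e-08) and 9.95 (SE 0.701, adjusted p 1.84e-09). They rest on the 6 counts of untreated replicate 2. Without it the S1D4 value was 6.71 (adjusted p 0.00749), the S2D4 value 11.5 (5.84e-07) and the S2D30 value 13.4 (3.97e-08). Those fits compare with untreated cells at 0 counts, so the sizes of these values are not measured. The S1D4 call was lost without untreated replicate 1 (2.67, adjusted p 0.0731) or 4 (2.76, 0.062). The later steps did not need untreated cells: 4.81 (SE 0.53, adjusted p 1.28e-06) from S1D4 to S2D4 and 1.93 (SE 0.396, adjusted p 0.00066) from S2D4 to S2D30, or 5.15 and 1.58 without replicate 4 of S2D4. In GIMEN, BMP2 had 1, 3 and 0 counts untreated and 2.88, 1.71 and 1.86 CPM in D30. That is a ratio of 31.2 (95% interval 11.8 to 117, 105 counts against 4), with a log2 fold change of 4.80 (SE 0.578, adjusted p 1.66e-05).

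BMP4, a ligand close to BMP2 in sequence, moved the other way. Untreated SK-N-AS had 4.25, 4.90, 3.34 and 3.24 CPM and S1D4 had 2.93, 3.25, 3.67 and 4.21. S2D4 had 0.745, 0.977, 0.847 and 1.00 CPM, replicate 4 included, and S2D30 had 1.49, 0.614, 1.40 and 1.17. S1D4 overlapped untreated cells (log2 fold change -0.19, adjusted p 0.561), whereas S2D4 and S2D30 lay wholly below both. Their log2 fold changes were -2.17 (SE 0.258, adjusted p 1.77e-06) and -1.77 (SE 0.252, adjusted p 8.35e-06). The fall came between S1D4 and S2D4, at -1.98 (SE 0.259, adjusted p 8.08e-06). All 6 GIMEN libraries had 0 counts of BMP4. The floor of 3 counts per library puts untreated GIMEN at least 25.1-fold lower than untreated SK-N-AS.

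BMP7, a ligand of another branch of the family, changed less and with more scatter. Untreated SK-N-AS had 4.62, 5.03, 3.10 and 4.09 CPM, S1D4 had 7.67, 6.59, 5.86 and 5.14, and S2D30 had 7.72, 8.29, 9.29 and 6.82. S2D4 had 1.63, 2.17 and 1.41 CPM in replicates 1 to 3 and 7.13 in replicate 4. Those 3 libraries lay below all untreated ones, and replicate 4 lay above them. All S1D4 libraries exceeded all untreated ones, and yet the log2 fold change of 0.56 (SE 0.371) was not called (adjusted p 0.253), except with these groups alone (0.59, 0.0342). S2D30 was called higher at 0.89 (SE 0.37, adjusted p 0.041). That call was lost with the term for replicates 3 and 4 (0.71, adjusted p 0.132), without untreated replicate 1 (0.97, 0.0501), 3 (0.77, 0.106) or 4 (0.88, 0.0683), and without S2D30 replicate 1 (0.91, 0.0616), 2 (0.87, 0.0711) or 3 (0.81, 0.0897). S2D4 was not called against untreated cells (-0.46, SE 0.378, adjusted p 0.304), while without replicate 4 it was lower by -1.32 (adjusted p 4.85e-05).

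The steps of BMP7 around S2D4 also turned on that library. From S1D4 to S2D4 the value was -1.01 (adjusted p 0.0318) with it and -1.88 (1.49e-06) without it. From S2D4 to S2D30 it was 1.35 (adjusted p 0.00688) with it and 2.21 (3e-07) without it. The S1D4 to S2D4 call was lost without S1D4 replicate 1 (-0.91, 0.079) or 2 (-0.99, 0.0581), without S2D4 replicate 1 (-0.80, 0.0945), 2 (-0.88, 0.0865) or 3 (-0.77, 0.0921), and with these groups alone (-1.03, 0.0963). In untreated GIMEN, BMP7 had 1 count in 3 libraries, a ratio of 0.00407 to untreated SK-N-AS (95% interval 0.000103 to 0.0228). GIMEN D30 had 0.529, 0.635 and 0.45 CPM, a ratio of 30.9 to untreated GIMEN (95% interval 5.07 to 1266, 26 counts against 1), and BMP7 was below the filter of the GIMEN model.

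Seen per kilobase, the 3 ligands exchanged places in SK-N-AS. In untreated cells BMP4 held 61.7 ± 2.97% of their summed CPM per kb (SD, n = 4), BMP7 37.6 ± 3.19% and BMP2 0.703 ± 1.41%. In S1D4 these shares were 46.5 ± 7.74%, 47.4 ± 7.42% and 6.01 ± 0.851%. In S2D30 BMP2 held 89.5 ± 1.23%, BMP7 8.31 ± 0.789% and BMP4 2.16 ± 0.748%. The S2D4 mean for BMP2 was 76.6 ± 26.7%, with 36.5% in replicate 4. The summed level went from 2.07 ± 0.423 CPM per kb in untreated cells to 17.9 ± 1.98 in S2D30. These shares were not tested.

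The antagonist NOG rose in both lines, as BMP2 did. Untreated SK-N-AS had 1, 1, 0 and 0 counts, and S1D4 had 4, 2, 4 and 1, that is 0.0443 to 0.169 CPM. S2D4 had 1.30, 1.63, 1.04 and 0.356 CPM and S2D30 had 1.54, 2.10, 1.77 and 2.65. Every S2D4 and S2D30 library was above every untreated and S1D4 one. S2D4 and S2D30 overlapped, and replicate 4 was the lowest of S2D4. The ratio of pooled counts to untreated cells was 57.9 in S2D4 (95% interval 15.6 to 485) and 118 in S2D30 (32.1 to 980.3). The edgeR log2 fold changes were 5.56 (SE 0.668, adjusted p 1.95e-06) and 6.47 (SE 0.644, adjusted p 1.27e-07), and 5.86 in S2D4 without replicate 4. The S1D4 call (2.46, SE 0.869, adjusted p 0.0329) rests on 11 counts against 2, a ratio of 6.97 (1.52 to 64.7). It was lost without untreated replicate 1 (2.74, adjusted p 0.0564), 3 (2.23, 0.0689) or 4 (2.07, 0.0807) and without S1D4 replicate 1 (2.27, 0.0782) or 3 (2.24, 0.0854). The step from S1D4 to S2D4 was 3.10 (SE 0.523, adjusted p 0.000103). The step from S2D4 to S2D30 (0.92) was not called (adjusted p 0.0656), except without S2D4 replicate 2 (1.18, 0.0367).

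NOG also rose in GIMEN, from 0.619, 0.196 and 0.904 CPM to 0.94, 5.65 and 5.14. The D30 libraries lay above the untreated ones, replicate 1 by a small margin. The log2 fold change was 2.75 (SE 0.64, adjusted p 0.00242). Untreated GIMEN had more NOG than untreated SK-N-AS, at a ratio of 32.6 (95% interval 8.32 to 281, 32 counts against 2).

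GREM1, the other antagonist, lay between 0.921 and 3.67 CPM in all SK-N-AS libraries. Of its annotated exon bases 1.29% overlap an antisense gene. Untreated cells had 2.08, 2.36, 1.15 and 1.07 CPM, S1D4 had 2.13, 1.41, 1.48 and 1.20, S2D4 had 2.33, 2.50, 3.67 and 3.14, and S2D30 had 1.27, 0.921, 1.27 and 1.13. S2D4 was the highest group, and it overlapped the untreated libraries. It was called higher at 0.77 (SE 0.28, adjusted p 0.0248), or 0.73 (0.0439) without replicate 4. The call was lost without untreated replicate 3 (0.63, adjusted p 0.0761) or 4 (0.61, 0.0658), without S2D4 replicate 3 (0.64, 0.0815), with these groups alone (0.78, 0.0606) and with the term for replicates 3 and 4 (0.49, 0.0925). Against S1D4 it was 0.89 (adjusted p 0.0137), or 0.55 (0.079) with the term. The S1D4 value of -0.13 (adjusted p 0.765) and the S2D30 value of -0.57 (SE 0.293, adjusted p 0.0916) were not called, and the latter was called without untreated replicate 3 (-0.71, 0.049) or 4 (-0.73, 0.0307) and with the term (-0.85, 0.0066). From S2D4 to S2D30 it fell by 1.34 (SE 0.291, adjusted p 0.00106). GIMEN had 0.226 to 0.638 CPM untreated and 0.235 to 0.385 in D30, too few counts for its model.

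**Figure D4:**
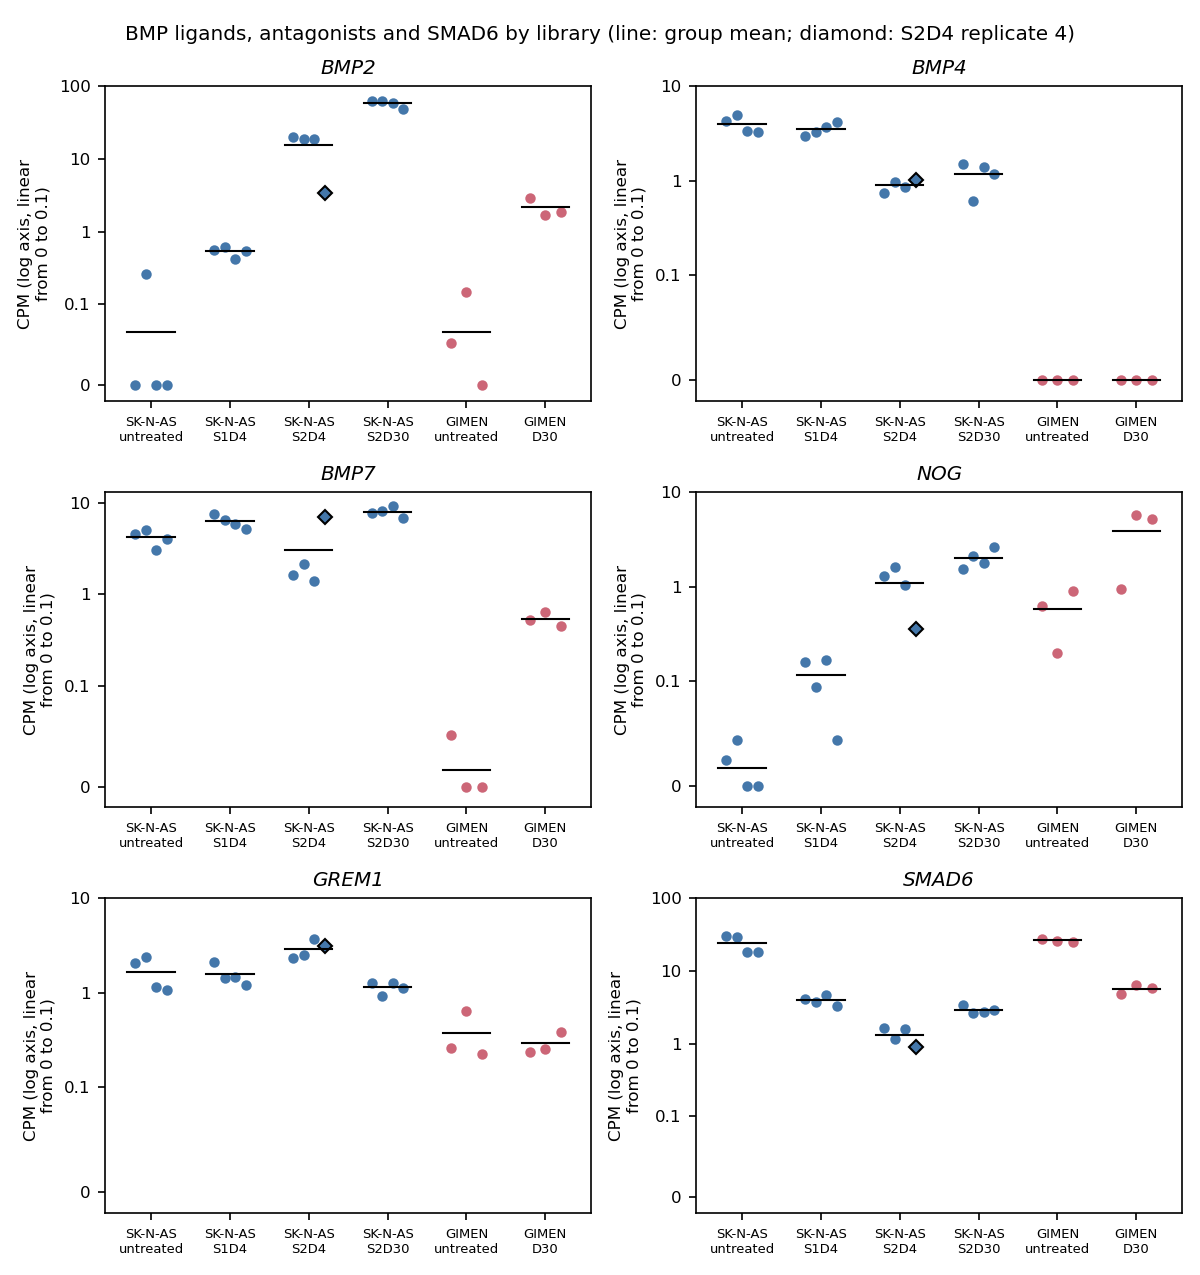
CPM of BMP2, BMP4, BMP7, NOG, GREM1 and SMAD6 in each of the 22 libraries (log axis, linear from 0 to 0.1), with a line at each group mean and a diamond for replicate 4 of S2D4. BMP2 climbs to 48.0 to 63.2 CPM in S2D30, BMP4 is at 0 in all GIMEN libraries, and SMAD6 is lower in every treated group than in untreated cells.

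SMAD6, a target gene that feeds back on the receptors, fell in all 4 comparisons with untreated cells. Untreated SK-N-AS had 29.9, 28.9, 17.99 and 18.04 CPM, S1D4 had 4.14, 3.67, 4.64 and 3.24, S2D4 had 1.14 to 1.63 in replicates 1 to 3 and 0.907 in replicate 4, and S2D30 had 3.42, 2.66, 2.67 and 2.87. Every treated library was below every untreated one, and S2D4 was the lowest group. The log2 fold changes were -2.62 (SE 0.217, adjusted p 2.26e-07), -4.21 (SE 0.241, adjusted p 3.47e-10) and -3.06 (SE 0.223, adjusted p 2.68e-09). Without replicate 4 of S2D4, the lowest of its group, the second was -4.05. SMAD6 went down by 1.59 (SE 0.237, adjusted p 3.02e-05) from S1D4 to S2D4 and up by 1.15 (SE 0.241, adjusted p 0.000773) from S2D4 to S2D30. GIMEN had 27.5, 25.9 and 25.0 CPM untreated and 4.82, 6.41 and 5.72 in D30, which is -2.24 as log2 fold change (SE 0.118, adjusted p 1.76e-08). The untreated lines did not differ detectably (0.15, SE 0.176, adjusted p 0.45).

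The order of the groups differed by gene. For SMAD6 the 2 untreated groups overlapped at the top, followed by GIMEN D30, S1D4 and S2D30, of which the last 2 overlapped, and S2D4. For ID1 both GIMEN groups came first, and S1D4 and S2D4 overlapped at the bottom. For ID4 and BMP2, S2D30 was highest and S2D4 next by mean. For ID4, S2D4 overlapped untreated GIMEN, and its lowest library, at 9.66 CPM, lay below all GIMEN libraries (17.0 or more). Untreated SK-N-AS was last for ID4, alone, and last for BMP2, where it overlapped untreated GIMEN.

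The rest of the pathway was read from a list of 54 further genes, of which 44 could be tested in SK-N-AS and 39 in GIMEN. In S1D4, 9 were higher and 15 lower, where 17.6% and 22.4% of all genes were. In S2D4 these were 17 and 17 (all genes 30.9% and 32.2%), in S2D30 16 and 14 (33.8% and 36.5%), and in GIMEN D30 15 and 20 (35.5% and 36%). From S1D4 to S2D4, 21 were higher and 10 lower (28.3% and 26.8%), and from S2D4 to S2D30, 13 and 14 (24.4% and 26.9%). Genes are named by size of change among those called, with separate groups and a mean of at least 1 CPM. ATOH8, a helix-loop-helix factor and BMP target, had 94.7 ± 25.7 CPM (SD, n = 4) before treatment of SK-N-AS, and 9.83 ± 1.46, 0.988 ± 1.32 and 0.783 ± 0.144 after S1D4, S2D4 and S2D30. Its log2 fold changes were -3.30 (SE 0.414), -6.45 (SE 0.508) and -6.94 (SE 0.532), and in GIMEN -3.88 (SE 0.307), with edgeR adjusted p of 1.24e-05, 1.4e-08, 5.12e-09 and 4.93e-07. Its S1D4 to S2D4 step was -3.15, and -4.89 without replicate 4 of S2D4. It was lower in the same 4 comparisons as ID3 and SMAD6. DLX5, a homeobox target, fell by 3.56 in S2D4, by 6.15 in S2D30 and by 3.48 in GIMEN D30. From S1D4 to S2D4 it fell by 2.48. Other targets rose: MSX2, a homeobox factor, was at 0.0305 ± 0.0368 CPM in untreated SK-N-AS and 5.65 ± 0.228 in S2D30, with log2 fold changes of 6.27 in S2D4 and 7.15 in S2D30, which rest on 4 untreated counts, and 4.09 from S1D4 to S2D4. TBX3, a T-box repressor, rose by 1.15 in S1D4, DLX2 by 2.13 from S2D4 to S2D30 and HEY1, which is also a Notch target, by 2.66 in GIMEN D30.

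Extracellular antagonists and modulators went both ways. Of 12 further ones, 7 could be tested in SK-N-AS and 8 in GIMEN. In S1D4, 2 were higher and 3 lower, in S2D4 3 and 3, in S2D30 4 and 2, and in GIMEN D30 4 and 4. Of all genes 40.1%, 63.1%, 70.3% and 71.4% were called. BMPER and FST rose in SK-N-AS, as NOG did. BMPER, which binds BMPs, had 0.06 ± 0.0542 CPM in untreated SK-N-AS, 17.4 ± 9.78 in S2D4 and 26.9 ± 2.16 in S2D30, a log2 fold change of 8.22 (SE 0.778) and 8.85 (SE 0.774), and of 5.52 from S1D4 to S2D4. FST (follistatin), better known as a trap for activins, had 0.0795 ± 0.0151 CPM untreated, 6.10 ± 2.09 in S2D4 and 25.9 ± 3.54 in S2D30, at 6.17 (SE 0.477) and 8.26 (SE 0.469), with a step of 2.09 from S2D4 to S2D30. FSTL1 fell by 1.80 from S2D4 to S2D30, and CHRD (chordin) rose by 1.65 in GIMEN D30. From untreated SK-N-AS to S2D30 the mean of FSTL1 went from 36.8 ± 4.86 to 5.95 ± 1.29 CPM. That of CHRD went from 0.985 ± 0.157 to 0.274 ± 0.149 CPM. Of 6 further ligands tested in SK-N-AS, BMP6 rose from S1D4 to S2D4 by 5.08 (SE 0.764), from 0.085 ± 0.0613 to 3.15 ± 1.96 CPM. It stood at 7.85 ± 0.156 CPM in S2D30. The lowest S2D4 library had 0.227 CPM of BMP6 (median 4.02), and the lowest for BMPER had 2.79 (median 21.7).

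Of 10 receptors and co-receptors, 2 were higher and 4 lower in S1D4, 4 and 4 in S2D4, 1 and 4 in S2D30 and 6 and 3 in GIMEN D30, where 40.1%, 63.1%, 70.3% and 71.4% of all genes were called. The type I receptor BMPR1B rose by 2.89 (SE 0.237) in GIMEN D30, from 3.09 ± 0.705 to 23.4 ± 7.47 CPM (n = 3). ACVRL1, a type I receptor of endothelial cells, rose by 1.04 in S1D4 from 1.86 ± 0.336 CPM and fell by 2.08 to S2D4. The co-receptor RGMB fell by 1.54 from S2D4 to S2D30, which followed a rise. Its S2D4 mean, 246 ± 70.7 CPM, lay above that of untreated SK-N-AS (70.3 ± 11.4) and that of S1D4 (138 ± 3.56). The S2D30 mean was 84.7 ± 7.80 CPM, and those libraries overlapped the untreated ones. Among the SMAD transducers, SMAD1 rose by 1.52 (SE 0.0778) in S1D4, from 40.3 ± 2.01 to 117 ± 2.84 CPM, and stood at 17.9 ± 1.85 in S2D30. SMAD9, which is itself a BMP target in many cells, fell by 2.73 (SE 0.196) in S2D30.

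Of the 6 other intracellular brakes, 2 were higher and 3 lower in S1D4, 3 and 3 in S2D4, 5 and 0 in S2D30 and 2 and 4 in GIMEN D30, where the same shares of all genes were called. SMAD6 was lower in all 4. SMAD7 fell by 2.15 (SE 0.237) in S1D4, from 14.1 ± 0.614 to 3.23 ± 0.815 CPM, and was not called in S2D30 at 11.7 ± 0.491 CPM (-0.30, adjusted p 0.228). In GIMEN D30 it fell by 2.82 (SE 0.106), from 33.4 ± 1.64 to 4.81 ± 0.496 CPM. BAMBI, a pseudoreceptor, rose by 3.42 (SE 0.209) from S2D4 to S2D30, which followed a fall. Its S2D4 mean, 2.06 ± 0.793 CPM, lay below that of untreated SK-N-AS (14.4 ± 1.84) and that of S1D4 (5.05 ± 0.738). The S2D30 mean was 22.6 ± 2.17 CPM. The E proteins TCF3, TCF4 and TCF12, which ID proteins bind, were all 3 lower in S2D30 and in GIMEN D30, where 36.5% and 36% of all genes were lower. TCF3 went from 463 ± 43.5 to 182 ± 11.3 CPM in SK-N-AS and from 302 ± 6.54 to 146 ± 15.3 in GIMEN. TCF4 went from 393 ± 130 to 94.0 ± 3.88 CPM in SK-N-AS, most of it between S2D4 and S2D30 (-1.73, SE 0.178). The lists were chosen with results of these data known, and their counts are descriptions.

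Across the lines, untreated GIMEN differed from untreated SK-N-AS in 7 of the 10 genes, 4 higher and 3 lower, where 73.9% of 16246 genes were called (35.3% higher, 38.6% lower). Their libraries did not overlap for 7 members either, against 71.7% of genes. ID1 was higher in GIMEN by 2.71 (SE 0.281, adjusted p 1.59e-07), ID3 by 0.55 (SE 0.177, adjusted p 0.0097), and ID4 and NOG as given above. BMP4, BMP7 and GREM1 were lower, GREM1 by 2.11 on the log2 scale (SE 0.423, adjusted p 0.000264). Upper-quartile scaling moved the median of all genes in this comparison by -0.15, and no call of a member changed with it. SMAD6, not called either way, went from 0.15 to -0.0023. BMP2 was at 0 to 6 counts in the 7 untreated libraries and was not called (adjusted p 0.781). It was called without untreated SK-N-AS replicate 2, the library with 6 counts (3.77, adjusted p 0.0283). That leaves 0 counts in untreated SK-N-AS, so the size of this value is not measured.

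The 30-day change itself differed between the lines for 7 of 9 genes tested, 3 more positive and 4 more negative in GIMEN, where 49.7% of all genes were called (25.2% and 24.5%). The 4 were ID2 and ID4, as above, BMP2 (-5.10, SE 1.7, adjusted p 0.0197) and NOG (-3.68, SE 1.13, adjusted p 0.0122). BMP2 and NOG rose in both lines, by a larger factor in SK-N-AS. For NOG that factor rests on 2 untreated SK-N-AS counts. Its mean went from 0.0171 to 2.01 CPM in SK-N-AS and from 0.573 to 3.91 CPM in GIMEN, so the level reached was not higher in SK-N-AS. The BMP2 difference rests on few untreated counts. It was -8.46 without untreated SK-N-AS replicate 2, a size that is not measured because no untreated SK-N-AS count is left. The difference was not called without untreated GIMEN replicate 2 (-3.89, adjusted p 0.331) or with all 22 libraries in the model (-5.12, 0.0773). The 3 were BMP7 (3.67, SE 0.767, adjusted p 0.000769), SMAD6 (0.84, SE 0.281, adjusted p 0.0198) and ID3 (0.73, SE 0.257, adjusted p 0.0259). ID3 and SMAD6 fell in both lines and fell further in SK-N-AS. The ID3 difference was not called without S2D30 replicate 4 (0.68, adjusted p 0.0511), untreated GIMEN replicate 1 (0.71, 0.0558) or 2 (0.71, 0.0559), D30 replicate 1 (0.61, 0.0801) or with all 22 libraries (0.70, 0.106). The SMAD6 difference was not called without D30 replicate 2 (0.73, adjusted p 0.0634). That of BMP7 was 5.72 without untreated GIMEN replicate 1, which holds its only count in untreated GIMEN. The size of that BMP7 value is therefore not measured.

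Genes of most similar course over the 22 libraries were sought for the 7 members that could be tested in both lines, among 13953 genes, as those with the smallest root mean square difference of centred log2 CPM. ID1 lay closest to OLFML3 (0.489, where ID1 itself had an SD of 1.78) and PRR16, and ID4 to SERPINB8 (0.519, SD 1.83) and SLC2A3. BMP2 lay closest to COL22A1 (0.689, SD 3.37) and CD55, SMAD6 to KCTD16 (0.536, SD 1.56) and ARHGEF28, and NOG to SLC1A3 (0.698, SD 1.87) and ITPRIP. ID2 lay closest to POLD2 (0.313, SD 0.865) and TAF9, and ID3 to HAUS4 (0.37, SD 0.988) and POLA2. Among the members, ID3 was the closest to SMAD6, in place 19 of all genes at 0.78. Seen from ID3, SMAD6 was in place 1039 at the same distance, where ID3 itself had an SD of 0.988. ID1, ID2 and ID4 were far from each other, at 2.10 to 2.47. With the 16 SK-N-AS libraries alone, 0 of the 14 named genes kept their place.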

How the data were processed

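Total RNA of 22 libraries (16 of SK-N-AS, 6 of GIMEN) was sequenced as paired reads, per the labels' protocols. The values used are raw read counts per gene symbol, as deposited by the authors. The aligner, counting tool, genome build, annotation and strand setting are not given in the sources used here. Totals of 16456484 to 37506800 counts per library set the precision, and genes near 0 counts are given with exact 95% intervals of their ratio or a floor of 3 counts.

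Counts were tested in R 4.3.3 with the quasi-likelihood F-test of edgeR 4.0.16 (limma 3.58.1), TMM scaling, filterByExpr (minimum count 10, total 15) and Benjamini-Hochberg adjustment over all genes, called at 0.05. Models held the 16 SK-N-AS libraries (15810 genes), the 6 GIMEN libraries (13517 genes), or for comparisons between lines the 14 untreated, S2D30 and D30 libraries (16246 genes). CPM come from 1 TMM scaling of all 22 libraries, fold changes from the models. Each standard error (SE) was back-calculated as the absolute log2 fold change divided by the square root of the F statistic. Alternatives were DESeq2 1.42.0, 2 other scalings, 2 other filters, other sets of libraries, a replicate block, each library left out, and a term for replicates 3 and 4.

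All 10 members are reported in every comparison. Of 54 other pathway genes, the 3 largest rises and 3 largest falls per comparison are named among those called, with groups that do not overlap and a mean of at least 1 CPM, apart from results that are not reported here. A few further values from these lists are given beside them and were picked after they were seen. They are SMAD1, BMP6, SMAD7, FSTL1 and CHRD in S2D30, BAMBI and RGMB in the other SK-N-AS groups, and TCF3. Genes of similar course are the 2 nearest per member in centred log2 CPM (prior count 2). The members and lists were chosen with earlier results of these data known. Tested on simulated data, the model recovered 92% of 100 genes changed by 1 log2 unit in S1D4 (15472 genes), 98% of 100 in GIMEN D30 (13350 genes) and 79% of 100 for the difference between lines (15617 genes).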

Additional observations from a re-analysis of the deposited data

Results flagged for a closer look

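Among 40 groups of 4 libraries, 6 had a single library far from the other 3 by Dixon's criterion. For independent groups of normal values chance meets it in about 1 of 20. These groups share libraries across genes and hold CPM, some at 0, so that rate is not exact for them. Replicate 4 of S2D4 accounts for 4 of the 6. It had 90.2 CPM of ID2 (others 56.8 to 59.7), 35.0 of ID3 (others 14.1 to 15.3), 3.40 of BMP2 (others 18.8 to 19.9) and 7.13 of BMP7 (others 1.41 to 2.17). Untreated SK-N-AS replicate 2 had 1.62 CPM of ID4 (others 0.841 to 0.907) and 0.262 of BMP2, where the others were at 0.

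The 30-day change differed between the lines, as log2 fold change in GIMEN minus that in SK-N-AS, by -1.81 for ID2, 0.73 for ID3, -5.62 for ID4, -5.10 for BMP2, 3.67 for BMP7, -3.68 for NOG and 0.84 for SMAD6. Dose, medium and schedule differ between the lines too and cannot be told apart from the line.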

How the results depend on the processing

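Of the members' values under the alternatives, 1141 kept direction and call, 46 lost the call, 13 gained it and 17 changed sign. The 557 values of named pathway genes kept direction and call. Those genes were named for large, called changes with separate groups, so their stability cannot be set against that of the members. The count of members higher in S2D4 (5) was 3 with the term for replicates 3 and 4, 2 with the compared groups alone, and 3 to 5 with a library left out. That of members higher in S1D4 (3) was 1 to 3 with a library left out. The count lower in S2D30 (3) was 5 with the term and 3 to 6 with a library left out, and the count higher from S1D4 to S2D4 (5) was 3 with the term. The cause was not tested.

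All sign changes were of values not called. ID1 from S1D4 to S2D4 was -0.084 with upper-quartile scaling, -0.40 with the term, and -0.083 to 0.14 with a library left out. With a library left out, ID2 in S1D4 was -0.42 to 0.071 and GREM1 -0.32 to 0.080. Between untreated lines, SMAD6 was -0.0023 with upper-quartile scaling, and with a library left out ID2 was -0.31 to 0.19 and BMP2 -0.79 to 3.77. The BMP2 value of 3.77 has no SK-N-AS count behind it, so its size is not measured. The line difference of GREM1 was -0.080 to 0.81 with a library left out.

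Replicate numbers were not taken to pair the libraries, since correlations of same-numbered deviations ran from -0.106 to 0.311 and not every one was over 0.1. Untreated and S1D4 libraries did share structure: 3 of 4 same-numbered pairs were over 0.1 (0.276 to 0.311), but so was untreated replicate 4 with S1D4 replicate 3 (0.306), while with S1D4 replicate 1 it was at -0.364. With the replicate block, 2880 genes were higher and 3571 lower in S1D4, 4932 and 5125 in S2D4, 5429 and 5776 in S2D30, and 4658 and 4763 in GIMEN D30. Of the members it ended the call of ID2 in S2D4 alone (0.59, edgeR adjusted p 0.0504). With the compared groups alone, NOG in S1D4, in S2D4 and between them, and BMP6 between them, gave no value because the filter removed them. Depth limits BMP2, BMP4, BMP7 and NOG where groups hold 0 to 6 counts.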
